A study of Mus musculus with 15 samples.

Results

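Cytosolic ribosomal protein genes encode the proteins that, with the ribosomal RNAs, make up the 40S and 60S subunits of the ribosome. They were chosen here by symbol alone, as rows of the count table named Rps or Rpl with a number and at most 1 letter, Rplp0 to Rplp2, or Rpsa. That rule found 83 of 54838 genes in the table. By role they were 30 genes of the small (40S) subunit, 43 of the large (60S) subunit, 3 of the P-stalk where elongation factors bind (Rplp0, Rplp1 and Rplp2), and 7 paralogs or retrocopies of such genes. The annotation lists 80 of the 83 as protein coding, and Rpl32l, Rpl6l and Rps4l as processed pseudogenes. Rpl10l, a testis-type copy of Rpl10, had no count in any library, so 82 members could be tested.

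Most of these messenger RNAs begin with a run of pyrimidines, the TOP motif, which places their translation under the control of mTOR, the 4E-binding proteins and Larp1. Their products are needed in near-equal amounts, so their transcripts usually move as a block, and lymphocytes that leave rest to grow and divide raise ribosome production. A few ribosomal proteins have known roles beyond the ribosome. Rpl5 and Rpl11 bind Mdm2 together with 5S RNA, Rps6 is the substrate of S6 kinase, and Rps27l, a paralog of Rps27, is a target of p53.

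The study sequenced poly(A) RNA of splenic B cells from wild-type male mice aged 3 months, in 15 libraries of 5 groups with 3 libraries each, lettered A, B and C. Spleens gave sorted naive and germinal centre (GC) B cells on day 9 after immunisation with sheep red blood cells. The other 9 libraries are naive B cells kept in culture for 5 days and titled CD40 (anti-CD40 antibody at 5 µg/ml with 80 ng/ml mouse IL-4), CpG (2 µM oligonucleotide) or LPS (25 µg/ml lipopolysaccharide). Whether IL-4 was also present with CpG and LPS is not settled by the labels. All groups are wild type and none was left unimmunised, and the labels state neither what the letters mean nor whether animals were pooled. The p-values therefore measure the spread between libraries, part of which may be technical.

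Libraries held 25397624 to 36272197 counts. Marker sums followed the labelled cell types: 6 GC genes summed to 2063 to 2323 CPM (counts scaled to a common library size) in GC libraries against 71.4 to 128.9 in naive ones, and 8 naive and follicular genes to 13988 to 16967 CPM in naive libraries against 7544 to 8284 in GC. Naive replicate B stood apart, with counts in 11523 genes where naive A had 13920 and naive C 18866, and with erythroid genes summed to 306 CPM against 29.2 and 3.30. Early response genes such as Fos and Jun summed to 3552 to 8907 CPM in naive libraries, 519 to 569 in GC and 533 to 902 in activated ones. T cell genes summed to 161 to 174 CPM in GC libraries, 57.1 to 74.3 in naive and 31.3 to 45.2 in activated ones. The 9 activated libraries differed far more by letter than by titled stimulus. With stimulus as a term, 31.1%, 23.4% and 34.8% of all genes were called between A and B, A and C, and B and C. With letter as a term in the same 9 libraries, 27, 44 and 45 genes were called between CpG and CD40, LPS and CD40, and LPS and CpG, and 0 in the fit of all 15 libraries without that term. Stimulus and letter were used as the titles give them. Whether the 2 were exchanged in the titles was not tested, and if so the stimulus and letter values below would trade meaning. The part that erythroid RNA, T cell RNA, early response genes or what the letters stand for have in the values that follow was not tested.

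The starts of 6 members are shown, Rps27l without a marked pyrimidine word and the others as examples of the pyrimidine start. The starts of Rps18, Rps2, Rpl7a, Rpsa and Rpl34, read in the same way and not printed, hold none of the words marked. Other runs of pyrimidines are not marked by these words, and Rps18 has such a run from its annotated first base. Each line gives 30 bases before and 20 after the RefSeq start on GRCm38.p6, on the coding strand. Capitals mark the pyrimidine words CTTTCC and CTCTTT, and also CCGGAA, the core bound by ETS factors, on the strand shown.
Rps6, chr4:86857348-86857397, minus strand: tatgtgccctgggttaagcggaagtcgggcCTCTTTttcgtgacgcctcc
Rpl28, chr7:4792935-4792984, plus strand: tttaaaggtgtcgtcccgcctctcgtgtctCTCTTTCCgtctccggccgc
Rpl38, chr11:114668550-114668599, plus strand: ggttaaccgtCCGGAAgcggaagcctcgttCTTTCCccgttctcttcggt
Rps26, chr10:128626487-128626536, minus strand: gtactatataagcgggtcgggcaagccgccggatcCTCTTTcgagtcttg
Rps27, chr3:90213629-90213678, minus strand: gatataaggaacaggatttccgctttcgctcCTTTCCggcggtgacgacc
Rps27l, chr9:66946056-66946105, plus strand: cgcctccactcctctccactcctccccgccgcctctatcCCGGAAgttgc
In Rps6, Rpl28 and Rpl38 a capitalised pyrimidine word begins on the annotated first base. The first start listed for Rps27l has neither pyrimidine word in this stretch.

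RefSeq windows of 250 bases before to 50 after the start were matched by symbol for 61 of the 83 members, 73 windows in all. Over the last 100 bases of the window, counting the sense strand only, CTTTCC stood in 22 of 73 member windows (30.1%) against 4.69% of 32851 windows of all genes. CTCTTT also stood in 22 (30.1%) against 3.99%. Over the whole 300 bases and both strands CCGGAA stood in 34 (46.6%) against 14.9%. On the same terms AAGATGG, the core bound by YY1, stood in 11 (15.1%) against 6.34%, and TATAAA in 7 (9.59%) against 13.6%. The direction for TATAAA depended on the terms. On the sense strand it stood in 8.22% against 8.32% over 300 bases, and in 5.48% against 3.40% over the last 100. CTTTCC and CTCTTT can overlap each other, as in Rpl28, and windows of 1 gene with several starts overlap. These are matches of letters in a window, not tested sites.

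The summed members took a wide and letter-dependent share of each library. In naive libraries A, B and C they held 9.89%, 17.0% and 7.92% of counts, in GC libraries 8.99%, 8.51% and 7.89%. Libraries titled CD40 held 12.7%, 15.7% and 10.3%, those titled CpG 11.4%, 15.9% and 10.9%, and those titled LPS 12.8%, 16.2% and 11.7%, in the order A, B, C. Every activated library lay above every GC library, while the naive group spanned from the lowest GC level to above the highest activated one. With the stimuli averaged per letter, the activated share was 13.1% ± 2.56 (SD, n = 3 letters) against 8.46% ± 0.55 in GC (n = 3), a difference of 4.61 percentage points. An exact two-sided permutation test gave p = 0.1, the smallest that 3 against 3 allows, and 0.225 adjusted over the 18 share tests. Against 11.6% ± 4.80 in naive cells the difference was 1.45 points (exact permutation p = 0.7), and GC lay 3.16 points under naive (exact permutation p = 0.3). Neither exceeded the spread of the naive libraries. Without naive replicate B, GC lay only 0.444 points under naive and activated cells 4.16 points above it. In bulk RNA, fewer cells of a type and less RNA per cell cannot be told apart.

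The balance between the subunits was steadier than the total. The ratio of 40S counts to 60S and stalk counts was 0.797, 0.807 and 0.791 in naive replicates A, B and C, and 0.755, 0.762 and 0.736 in GC. Over the 9 activated libraries it ran from 0.739 to 0.761, with a mean of 0.753 ± 0.00865 (SD). All 3 naive libraries thus lay above all 12 others, also in naive B whose total stood apart. The difference was -0.0475 for GC minus naive and -0.0455 for activated, averaged per letter, minus naive (exact permutation p = 0.1 for each, 0.225 adjusted over 18 tests). Leaving out Rpsa, the most counted 40S gene, kept the order, at 0.704 to 0.727 in naive libraries and 0.664 to 0.696 in the rest. The stalk genes took 4.77% ± 0.23 of member counts in GC and 5.26% ± 0.03 in activated cells by letter (exact permutation p = 0.1, 0.225 adjusted over 18 tests). That small SD is between letter means. The 9 activated libraries ran from 5.02% to 5.61% (SD 0.22), and CpG C, the lowest, lay just under GC B (5.03%). Naive libraries held 4.83%, 6.18% and 4.82% in A, B and C, so the stalk share of naive B was the highest of all 15.

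**Figure D1:**
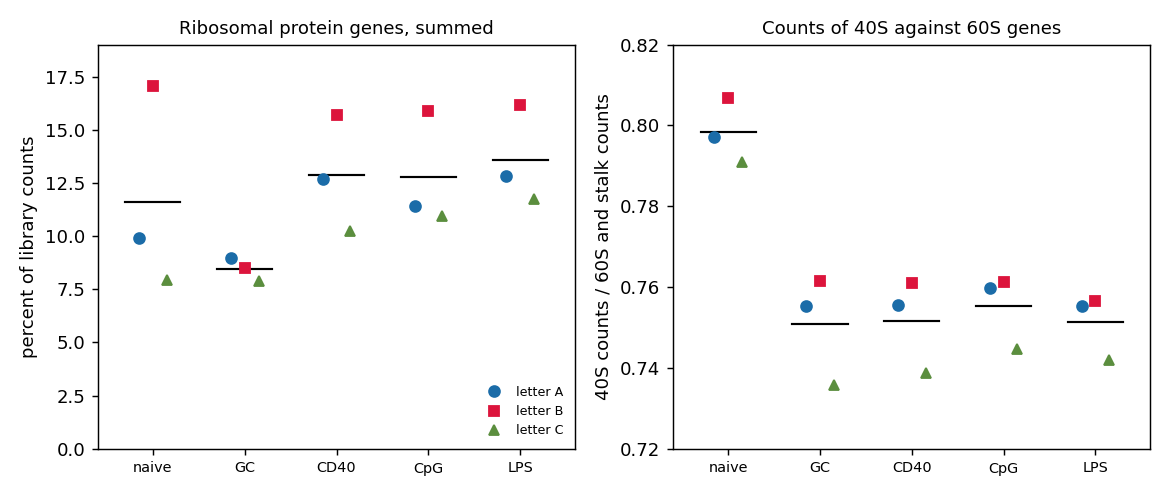
Percent of all counts in the 83 members (left) and the ratio of 40S to 60S plus stalk counts (right), 1 point per library with colour and shape giving the letter and bars the group means; the right axis starts at 0.72. The share runs from 7.89% in GC C to 17.0% in naive B and is highest in letter B of every group but GC, while the ratio is at least 0.791 in naive libraries and at most 0.762 in all others.

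Within the naive group most members were highest in naive B, the library with counts in the fewest genes. The share of all genes that did so is not given here. Of the 79 members with at least 10 counts in every library, 79 were higher in naive B than in naive A, by a median of 1.97-fold, and 74 were higher than in naive C, by a median of 2.20-fold. The 5 that were highest in naive C were Rpl29, Rpl30, Rpl32l, Rpl34 and Rps10. Rpl29, a 60S protein, stood at 106, 145 and 529 CPM in the naive libraries (A, B and C in turn). Its naive C level was above every other library, since GC libraries held 88.9 to 133.0 CPM and activated ones 193 to 293. Rplp1, of the stalk, was instead highest in naive B, at 1631, 4827 and 1128 CPM, as was Rpsa, the 40S protein also known as a laminin receptor, at 3996, 10722 and 2755 CPM. All fold changes against naive cells below rest on these 3 libraries.

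GC cells held less of most members than naive cells, but few passed the test. Fold changes were negative for 71 of 82 members, with a median log2 of -0.46 against 0.00 over all 17144 genes tested. Called lower were 8 members (edgeR quasi-likelihood, Benjamini-Hochberg over all genes, threshold 0.05), while 16.5% of all genes were called lower, so the members' share is below the background. Among them were the 60S genes Rpl13 and Rpl12 and the 40S genes Rps4x, Rps24, Rps14, Rps21 and Rps27. Called higher were 2 members, Rps27l and Rpl13a, where 17.9% of all genes were. The medians were -0.48 for 40S, -0.44 for 60S and -0.58 for the 3 stalk genes, none of which was called. Without naive replicate B the median of the members was 0.02, with 4 higher and 3 lower. Without GC replicate C 0 were lower, without GC replicate A 3 and without GC replicate B 1, whereas leaving out naive A or C gave 16 and 19. Over all genes, 2806 of 18054 were called lower without naive A and 2445 of 18055 without naive C. In those 2 fits the members' share was above the background. Without naive B, 3309 of 18176 genes were called higher and 3364 lower. Without GC A, B and C, 1849 of 18083, 1952 of 18060 and 2040 of 18095 genes were called lower.

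Rps4x, the X-linked 40S gene, stood at 2803, 5431 and 2420 CPM in the naive libraries and at 1826, 1771 and 1317 in GC. The groups did not overlap (log2 fold change -1.12, SE 0.29, adjusted p = 0.00778). Rpl13 stood at 2574, 6098 and 1757 CPM in naive and 1640, 1598 and 1456 in GC (-1.15, SE 0.36, adjusted p = 0.0228). Its GC libraries were alike and all below the naive ones, naive C only narrowly. The call of Rpl13 held in 7 of 12 alternatives and that of Rps4x in 10.

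From naive to activated cells the members' median change was like that of all genes, though not without naive replicate B. Fold changes were positive for 54 of 82, with a median log2 of 0.15 against 0.17 over all genes. Called higher were 13 members, where 23.4% of all genes were, and 4 lower, where 19.4% were. Among the 13 were the 40S genes Rps2, Rps18, Rps26 and Rps27a and the 60S genes Rpl3, Rpl4, Rpl7a, Rpl13a, Rpl15 and Rpl27. The other 3 were Rps27l and the retrocopies Rpl32l and Rpl6l. The 4 lower were Rps27, Rps21, Rps10 and the retrocopy Rps4l. Leaving out naive replicate B turned this into 47 higher and 2 lower with a median of 0.67. Over all genes, 4080 of 18176 were higher and 3701 lower in that fit. Leaving out naive A or activated letter B gave 6 higher, where 3355 of 18054 and 3109 of 17970 genes were. Summing the stimuli of a letter, which leaves 3 activated units in place of 9, gave 7 higher and 1 lower. There 2874 of 16029 genes were higher and 2011 lower. By titled stimulus, CD40, CpG and LPS had 8, 8 and 9 higher and 2, 0 and 1 lower, all against the same naive libraries. The respective backgrounds were 19.8%, 19.7% and 19.5% higher and 14.3%, 14.0% and 14.2% lower. For the 0 lower with CpG, 3 members had an unadjusted p under 0.05 and DESeq2 called 1.

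Activated and GC cells were compared next. The naive levels do not enter this contrast, but the naive libraries stayed in the fit and so in its scaling and spread. Fold changes were positive for 77 of 82 members, with a median log2 of 0.62 against 0.04 over all genes. Called higher were 31 members, where 19.4% of all genes were (37.0% in either direction), and 0 were called lower, where 17.7% were (also 0 at an unadjusted p under 0.05 and by DESeq2). They were 10 of 30 in the 40S, 19 of 43 in the 60S, Rplp0 of the 3 stalk genes, and Rpl6l. In 45 members all 9 activated libraries lay above all 3 GC libraries, as did 21.7% of all genes. The largest changes were in Rps2, Rpl3 and Rps18 (log2 1.31, 1.29 and 1.12). The call count moved with the libraries used. It was 14 with the stimuli of a letter summed, where 2290 of 16029 genes were called higher. With only these 12 libraries in the fit it was 56, where 4558 of 16672 genes were. Without GC A, B and C it was 17, 12 and 7. The genes called higher there were 2393 of 18083, 2441 of 18060 and 2392 of 18095. Without activated letter B it was 15, where 2597 of 17970 genes were. The members' share was thus near that of all genes without GC B and below it without GC C. No member was called lower in any of these fits.

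**Figure D2:**
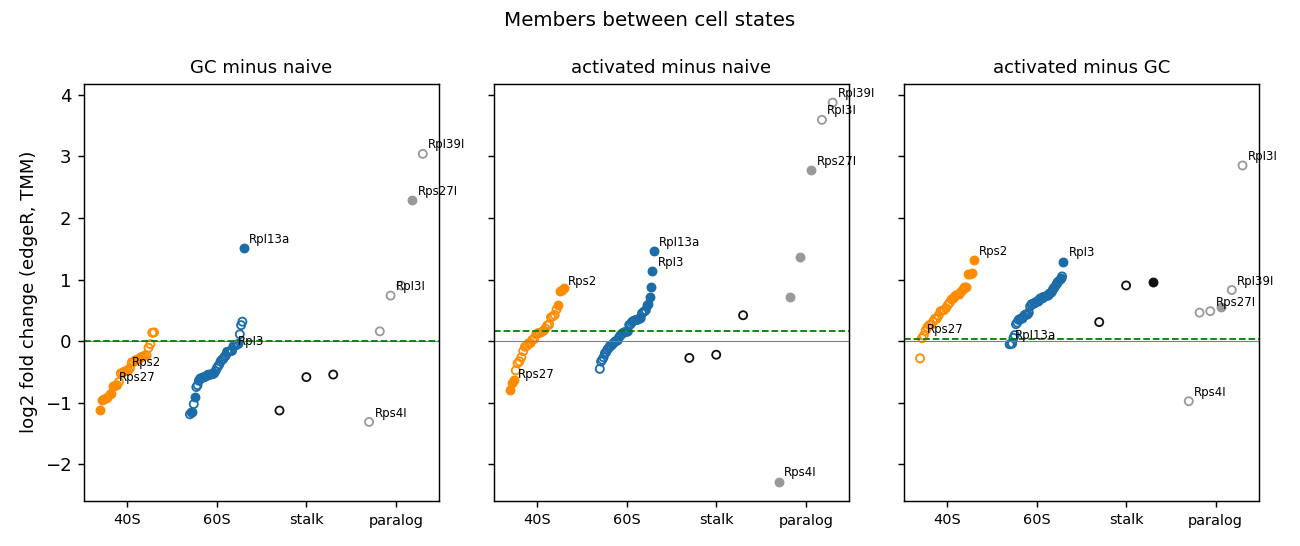
log2 fold change of each of the 82 members tested in 3 comparisons, 1 point per gene, split into 40S, 60S, stalk and paralog genes and ordered by value within each; filled points have an adjusted p under 0.05 and the dashed line is the median of all genes tested. The bulk of 40S and 60S genes lies under the line in GC minus naive, about it in activated minus naive and above it in activated minus GC, where 31 points are filled.

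The genes with named roles largely followed the block. Rpl5 and Rpl11, the 60S proteins of the 5S particle, had log2 changes of -0.58 and -0.53 in GC against naive and 0.01 and 0.34 in activated against naive (adjusted p from 0.154 to 0.976). Against GC, activated cells had more Rpl11, with 1495, 1678 and 2585 CPM as the lowest, median and highest of 9 libraries over 1093, 1036 and 986 in GC A, B and C (0.88, SE 0.27, adjusted p = 0.018). Rpl5 did not pass there (0.60, adjusted p = 0.0824). Rps6 stood at 1483, 1408 and 1063 CPM in GC A, B and C and at 1951, 2325 and 2893 as the lowest, median and highest activated library (0.85, SE 0.22, adjusted p = 0.00725). Those groups did not overlap. Rplp0 rose likewise from 1854 ± 242 to 3615 ± 534 CPM (0.96, adjusted p = 0.00768), while Rplp1 (0.91, 0.0692), Rplp2 (0.31, 0.454) and Rpsa (0.87, 0.0536) did not pass. The call of Rpl11 against GC held in 8 of 13 alternatives, that of Rplp0 in 11 and that of Rps6 in 12.

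Members that break from the group were sought by scaling each library to the summed members, so that a fold change is relative to the block. On this scale the 79 members with at least 10 counts in every library varied by a median of 1.61-fold from the lowest to the highest of 15 libraries. Rpl6 and Rpl5 varied least, 1.14- and 1.21-fold, and 16 members varied more than 2-fold. The widest were Rps27l (11.5-fold), Rpl29 (8.94), Rpl24 (7.71), Rps10 (6.61), Rpl13a (5.44) and Rpl32l (5.18). Within GC libraries the median was 1.10-fold, within the 9 activated ones 1.19 and within naive ones 1.23.

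Rps27l broke away most. It stood at 11.7, 30.8 and 20.6 CPM in the naive libraries, at 125, 104 and 78.4 in GC, and at 105, 151 and 171 as the lowest, median and highest activated library. All naive libraries lay under all others. Relative to the summed members it was higher in GC than in naive (log2 2.73, SE 0.33, adjusted p = 3.03e-05) and in activated than in naive cells (2.59, SE 0.30, adjusted p = 9.97e-06). On the plain TMM scale the changes were 2.29 and 2.77. Every alternative run kept both calls. Its paralog Rps27 moved the other way: 1265, 2124 and 1421 CPM in naive, 1108, 931 and 855 in GC, and 622, 982 and 1326 as the lowest, median and highest activated library. Relative to the members Rps27 was lower in activated than in naive cells (-0.94, SE 0.18, adjusted p = 0.000741) and than in GC (-0.63, SE 0.18, adjusted p = 0.0109), but not in GC against naive (-0.31, adjusted p = 0.366). The call of activated against naive held in every alternative, that of activated against GC in only 5 of 9. The coding sequences of the pair are shown because reads must be told apart by their differences, which are in capitals. They are aligned without gaps over 255 bases, from GENCODE M21 transcripts, and differ at 61 bases (76.1% identity).
Rps27: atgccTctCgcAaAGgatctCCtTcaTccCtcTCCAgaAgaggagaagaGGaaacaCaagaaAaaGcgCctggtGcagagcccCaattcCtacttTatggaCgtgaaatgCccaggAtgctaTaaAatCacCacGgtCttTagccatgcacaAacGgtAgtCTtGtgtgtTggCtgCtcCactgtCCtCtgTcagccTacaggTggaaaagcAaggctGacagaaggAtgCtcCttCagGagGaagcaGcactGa
Rps27l: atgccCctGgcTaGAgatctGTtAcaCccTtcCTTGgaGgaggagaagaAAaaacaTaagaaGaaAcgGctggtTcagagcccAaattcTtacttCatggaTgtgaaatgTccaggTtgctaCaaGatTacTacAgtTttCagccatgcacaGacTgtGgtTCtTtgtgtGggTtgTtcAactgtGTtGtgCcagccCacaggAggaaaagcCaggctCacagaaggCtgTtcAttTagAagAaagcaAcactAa
The differences are spread along the whole length. Of all 50-base stretches of their transcripts, 88.8% in Rps27l and 75.0% in Rps27 occur in no other annotated gene. These percents are over all annotated transcripts and need not hold for the spliced coding RNA alone. Rps27rt, a retrogene of Rps27, stood at 69.6 ± 8.49 CPM in naive, 50.1 ± 3.39 in GC and 52.0 ± 8.21 in activated cells.

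Rpl13a, a 60S protein also known from the GAIT complex, rose with Rps27l. It stood at 22.0, 42.1 and 30.1 CPM in the naive libraries, 93.9, 84.2 and 90.5 in GC, and 67.0, 80.0 and 112 as the lowest, median and highest activated library. Neither GC nor activated libraries overlapped the naive ones. Relative to the summed members it was 1.94 higher on the log2 scale in GC than in naive (SE 0.27, adjusted p = 0.000112) and 1.21 higher in activated cells (SE 0.23, adjusted p = 0.00095), and both calls held in every alternative. It was lower in activated than in GC cells (-0.73, adjusted p = 0.0107), a call lost with the stimuli summed per letter (0.12), without activated letter A (0.0812) and without GC C (0.0753). These levels come from few reads for such a gene. In GENCODE M21, 92.6% of the coding bases of Rpl13a lie on the same strand as exons of another gene, Gm45713, which had 0 counts in all libraries. Rpl24 (82.9% under Gm28037) and Rps10 (79.3% under RPS10-NUDT3) are placed likewise, the other gene again at 0. Rpl24 stood at 0.879 to 9.08 CPM and Rps10 at 4.10 to 13.1 CPM over the 15 libraries. Whether reads in such shared exons were left uncounted was not tested, and the levels of Rpl13a, Rpl24 and Rps10 are uncertain for that reason.

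Other members that stood higher than the block in GC than in naive cells were Rpl22 (0.80), Rpl28 (0.70), Rpl7a (0.67) and Rps26 (0.65). With Rps27l and Rpl13a they make 6 members, where 14.9% of all genes were called on this scale. Rpl22, a 60S protein with a known role in lymphocyte development, stood at 613, 1082 and 537 CPM in naive and 1046, 862 and 875 in GC. Its groups overlapped in CPM, through naive B, and its call held in every alternative (adjusted p = 0.00962 with all libraries). Its paralog Rpl22l1 was not called (0.46, adjusted p = 0.29). The calls of Rpl28, Rps26 and Rpl7a were each lost without naive A and without any 1 GC library, and that of Rpl7a also without naive B and with TMM on the members alone. Rps26-ps1 and Rpl28-ps1, processed copies chosen after the values were seen, moved in the same direction as Rps26 and Rpl28 (1.44 and 1.10 relative to the members, adjusted p = 0.00819 and 0.0188). Rps4x was the 1 member lower than the block (-0.61, adjusted p = 0.0268), where 6.72% of all genes were. It was not called without naive A or without GC A, B or C (adjusted p from 0.0722 to 0.13).

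In activated against naive cells, 7 members stood higher and 9 lower than the block, against 12.5% and 19.3% of all genes (31.7% in either direction). The 60S gene Rpl3, which reaches towards the peptidyl transferase centre, was highest after Rps27l and Rpl13a. Its levels were 1278, 2470 and 985 CPM in the naive libraries and 2717, 3111 and 4609 as the lowest, median and highest of the 9 activated libraries. The groups did not overlap (0.99 relative to the members, SE 0.16, adjusted p = 0.000259, kept in every alternative). Rps2 (0.68), Rps18 (0.64), Rps26 (0.64) and Rpl7a (0.62) followed. Rps2 stood at 1337, 2767 and 1080 CPM in naive and at 2387, 2650 and 4251 as the lowest, median and highest activated library, so naive B lay within the activated range. With the stimuli summed per letter Rps2, Rps18, Rps26 and Rpl7a were no longer called (adjusted p = 0.0601, 0.0704, 0.0737 and 0.127).

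Among the 9 lower were Rps4l, Rps10, Rps27, Rps21, Rps24, Rpl37a, Rpl21 and Rps15. Rps21 stood at 893, 1792 and 735 CPM in naive and 527, 710 and 920 as the lowest, median and highest activated library (-0.78 relative to the members, SE 0.16, adjusted p = 0.00136, kept in every alternative). Its CPM ranges overlapped. Rps24 followed with -0.58 (adjusted p = 0.0181, and 0.1002 with the stimuli summed per letter). Rps4l, an annotated retrocopy of Rps4x, was near the floor, at 4.78, 7.07 and 4.37 CPM in naive and 0.127 to 2.51 CPM after activation (-2.42, adjusted p = 0.0152, and 0.0921 with the stimuli summed per letter). Of the 9, only Rps27 and Rps21 were called in that fit.

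Relative to the block, 4 members were higher and 8 lower in activated than in GC cells, against 9.47% and 28.1% of all genes (37.6% in either direction). Rps2 (0.63) and Rpl3 (0.62) were higher by at least 1.5-fold, and Rps4x (0.42) and Rps14 (0.41) by less. Rpl13a (-0.73), Rpl21 (-0.71), Rps27 (-0.63) and Rpl22 (-0.63) were lower by at least 1.5-fold, and Rps29, Rpl41, Rps20 and Rps21 by less. Rpl21 stood at 1509, 1186 and 1392 CPM in GC and 1035, 1310 and 1711 as the lowest, median and highest activated library, where most other members rose (adjusted p = 0.00231, kept in every alternative). With the stimuli summed per letter it was the 1 member still called, and Rpl3 was the nearest miss among those higher (adjusted p = 0.0568). In that fit 834 of 16029 genes were called higher and 1958 lower.

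**Figure D3:**
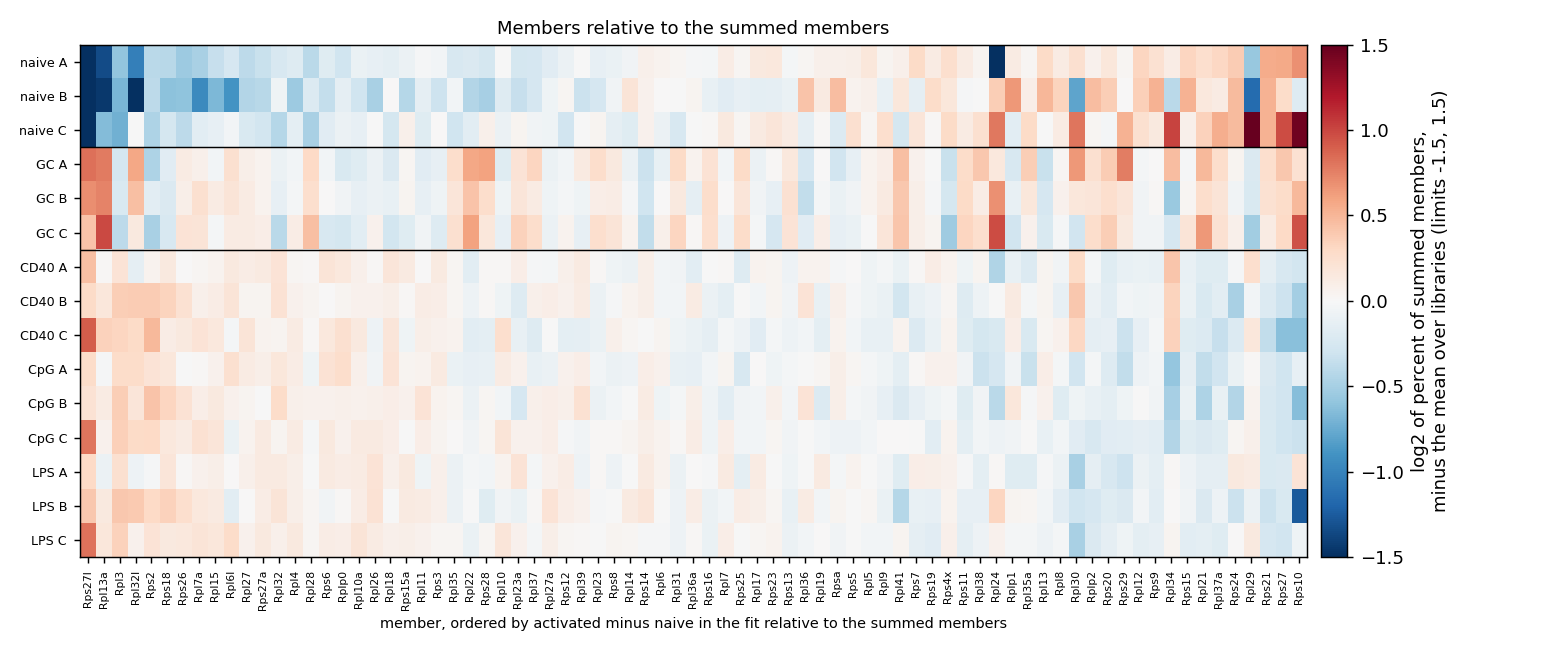
Each of 77 members as log2 of its percent of the summed members minus its own mean over the 15 libraries, libraries in rows and members in columns, with colour limits at -1.5 and 1.5. Naive rows are blue at the left end, led by Rps27l, Rpl13a and Rpl3, and red for Rps27 and Rps21 at the right end, where Rpl29 and Rps10 are darkest red in naive C.

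Most members differed by letter within the activated libraries. In these comparisons the 3 stimuli of a letter served as its replicates, so the p-values measure the spread between libraries of a letter. If a letter stands for 1 source, they do not measure the spread between sources. In all 3 stimuli, letter B was the highest of A, B and C for 76 of 79 members, the others being Rps10, Rps24 and Rps27l. The share of all genes with that order is not given here. All libraries of A lay below all of B in 73 members, as did 19.9% of all genes. All libraries of B lay above all of C in 75 members, as did 21.7% of all genes. Between A and B, 75 of 82 members were lower in A and 0 higher, with a median log2 of -0.44, against 14.5% lower and 16.6% higher among all 15727 genes tested in these libraries (0 members higher also at an unadjusted p under 0.05 and by DESeq2). Between B and C, 76 were higher in B and 0 lower, with a median of 0.58, against 17.3% and 17.5% (0 lower also unadjusted and by DESeq2). Between A and C, 24 were higher and 1 lower, with a median of 0.12, against 11.9% and 11.5%. The A against C count rested on the libraries used, at 1, 41 and 10 higher when those titled CD40, CpG and LPS were left out in turn. Rpl3 showed the pattern, with 2995 ± 136 CPM in letter A, 4466 ± 137 in letter B and 2964 ± 226 in letter C (SD, n = 3 stimuli).

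In naive libraries B was also the highest, for 74 of 79 members, but in GC libraries A was the highest for 70 of 79. The shares of all genes with these orders are not given here. Plasma cell genes moved with the letters as well. Their sum was 2877, 2938 and 3006 CPM in letter A with CD40, CpG and LPS, 2031, 2164 and 2085 in B and 5822, 6780 and 4875 in C. Myeloid genes summed to 17.7 to 18.4 CPM in letter A, 42.9 to 44.7 in B and 23.2 to 28.5 in C, and to 11.2, 30.3 and 14.1 in naive replicates A, B and C, so they too were highest in B. The part of either list in the letter values was not tested.

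Rps27l did not share the letter order. It stood at 119 ± 13.6 CPM in letter A, 158 ± 11.7 in B and 155 ± 5.58 in C, level in B and C where 76 members differed. It was the 1 member lower in A than in C (-0.38, SE 0.07, adjusted p = 0.000148). Relative to the summed members it was lower in B than in C (-0.54, adjusted p = 8.37e-06) and in A than in C (-0.50, adjusted p = 0.000102). Rps24, at 1951 ± 275, 1960 ± 149 and 1714 ± 249 CPM in A, B and C, was likewise level in A and B (0.43 relative to the members, adjusted p = 5.18e-06). On the relative scale A exceeded B in 10 members and fell short in 8, against 47.1% and 3.99% of all genes. In A against C, 1 member was higher (Rps19) and 3 lower, Rps27l and Rps2 among them, against 6.53% and 14.7% of all genes. For the pair B and C these counts were 4 and 7, against 3.29% and 52.0% of all genes.

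**Figure D4:**
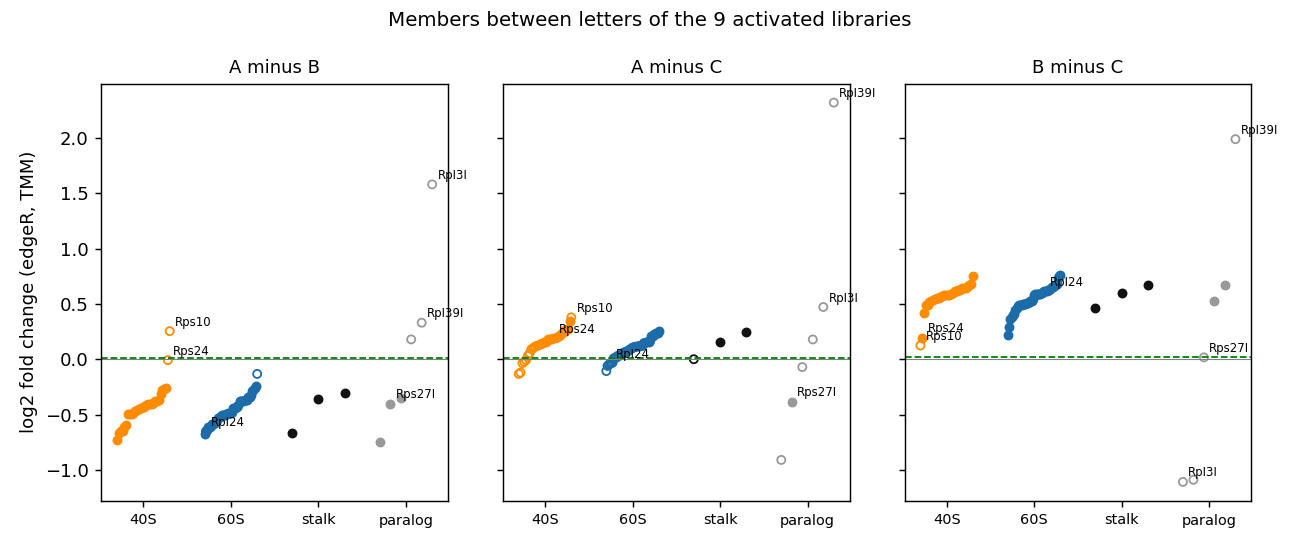
log2 fold change of each tested member between the letters of the 9 activated libraries, drawn as for the cell states. Nearly all points are filled and under the dashed median of all genes in A minus B and above it in B minus C, while Rps24 in A minus B and Rps27l in B minus C lie near 0.

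Between the titled stimuli no member was called (edgeR, 0 of 82 in each pair and 0.0% of all genes). DESeq2 also called 0, and only Rpl34 (CpG against CD40) and Rpl30 (LPS against CD40) had an unadjusted p under 0.05. The activated libraries of a letter deviated together, so the same comparisons were run with the letter as a block in these 9 libraries. Then Rpl34 and Rpl30 were lower with CpG than with CD40, Rpl30 was lower with LPS than with CD40, and Rpl34 was higher with LPS than with CpG. Over all genes 0.172% (0.0763% higher and 0.0954% lower), 0.28% and 0.286% were called in these 3 pairs. The 2 genes, both of the 60S, were singled out after their values were seen.

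Rpl34 stood at 574, 698 and 453 CPM in the libraries titled CD40 (A, B and C), at 260, 405 and 286 in those titled CpG and at 442, 579 and 420 in those titled LPS. Within each letter CD40 was the highest and CpG the lowest. The blocked log2 change was -0.86 for CpG against CD40 (SE 0.07, adjusted p = 9.63e-09) and 0.61 for LPS against CpG (SE 0.07, adjusted p = 8.78e-06), with -0.25 for LPS against CD40 not passing (0.141). Relative to the summed members these were -0.87, 0.53 and -0.34. Rpl30 stood at 562, 786 and 477 CPM under the title CD40, at 341, 584 and 371 under CpG and at 333, 501 and 312 under LPS. CD40 was again the highest in each letter (-0.50 for CpG, adjusted p = 2.64e-05, and -0.67 for LPS, adjusted p = 2.85e-07).

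Rpl34-ps1, a processed copy of Rpl34 outside the 83, moved the other way. It stood at 118, 152 and 91.8 CPM under the title CD40, at 208, 276 and 182 under CpG, and at 172, 228 and 149.9 under LPS (0.89 for CpG and 0.61 for LPS against CD40, adjusted p = 7.45e-10 and 9.54e-07 with the block). As a percent of Rpl34 and Rpl34-ps1 together it was 17.0, 17.9 and 16.8 in the 3 libraries titled CD40, 44.5, 40.5 and 38.9 in those titled CpG, and 28.0, 28.2 and 26.3 in those titled LPS. Libraries of 1 title were thus within 6 percentage points of each other across letters, and the titles did not overlap. In GC A, B and C the percent was 15.7, 37.9 and 29.9, and in naive replicates A, B and C 26.6, 37.1 and 3.07. The naive and GC libraries thus ran from below the CD40 values to just under the lowest CpG value. Of the 50-base stretches of Rpl34, 92.2% occur in no other annotated gene. That percent is over all its annotated transcripts, with 2643 exon bases of which 358 are coding. It need not hold for the spliced RNA that a processed copy resembles. Whether reads were divided between Rpl34 and its copy by sequence differences between animals was not tested.

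**Figure D5:**
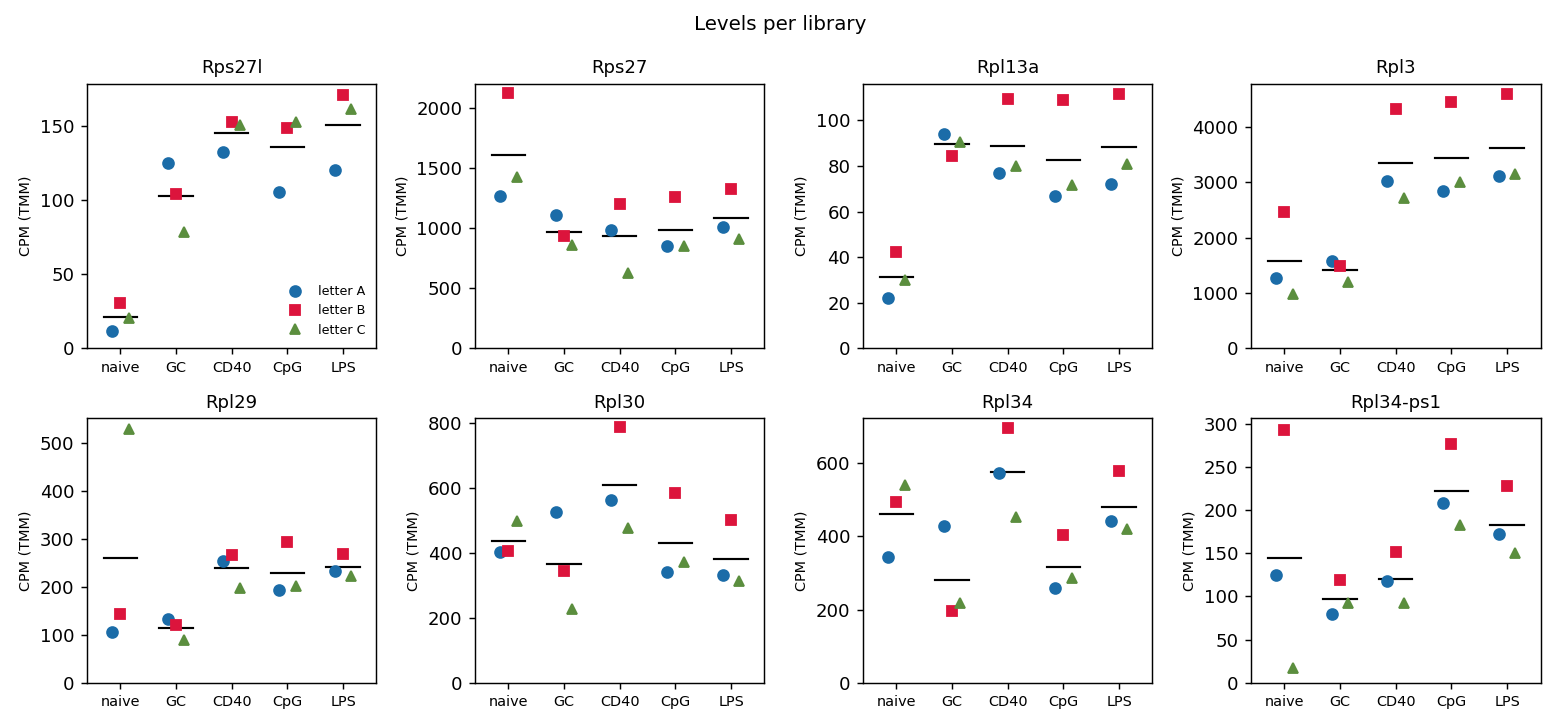
TMM-scaled CPM of 7 members and of the copy Rpl34-ps1 in each of the 15 libraries, with bars at the group means and colour and shape giving the letter. Rps27l and Rpl13a are lowest in all 3 naive libraries, Rpl29 is highest in naive C (529 CPM), and Rpl34 and Rpl34-ps1 are ordered oppositely over the titles CD40, CpG and LPS.

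Levels differed widely between members. Per kilobase of annotated exon, Rplp1, Rps15 and Rpl4 were the highest over all libraries, at 4091, 2646 and 2274 CPM per kb, and Rpl10l, Rpl3l and Rpl39l the lowest, at 0, 0.346 and 0.374. Exon length here is the union over all annotated transcripts, which lowers genes with retained introns. The paralogs stayed far below their main genes. Rpl3l, a muscle-type copy, held 0 to 0.208 CPM in naive, 0 to 0.218 in GC and 0.318 to 2.47 in activated libraries, and was not called in activated against naive (3.60, adjusted p = 0.064). Rpl39l, a germline-type copy, held 0 to 1.25 CPM over all libraries and was not called there either (3.87, adjusted p = 0.0975). Its coding sequence is 85.3% identical to that of Rpl39, and that of the undetected Rpl10l 84.8% to Rpl10. Rpl36al held 0 to 7.04 CPM against 397 to 1023 for Rpl36a.

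Related lists are given by their counts, none of them tested against the members. The backgrounds over all genes are, for higher and lower, 17.9% and 16.5% in GC against naive, 23.4% and 19.4% in activated against naive, and 19.4% and 17.7% in activated against GC. Of the 18 members mutated in Diamond-Blackfan anaemia, an inherited red cell aplasia, 3 were higher and 2 lower in activated than in naive cells, 6 higher in activated than in GC, and 2 lower in GC than in naive. Of 7 ribosomal protein genes outside the symbol rule, Fau and Rps27rt were lower in activated than in naive cells (-0.93 and -0.43), and Rack1 and Rps3a1 higher than in GC (1.01 and 0.57). Among 18 other TOP transcripts of translation, 11 were higher and 2 lower in activated than in naive cells, with a median of 0.55. Named by size they were the nucleolar protein Npm1 (1.25), the helicase Eif4a2 (-1.12), the poly(A)-binding protein Pabpc1 (1.04) and the elongation factor subunit Eef1b2 (0.89). In GC against naive, 5 of the 18 were higher and 1 lower, with a median of 0.18, and in activated against GC 6 were called, all higher, with a median of 0.33.

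Of 13 genes that control TOP translation, 4 were higher and 3 lower in activated against naive, beside 23.4% and 19.4% of all genes. Eif4ebp1, which encodes a 4E-binding protein, rose from 13.8 ± 5.12 to 93.5 ± 26.2 CPM (2.76, adjusted p = 8.04e-06) and Larp1 from 145 ± 1.87 to 308 ± 35.1 (1.08, adjusted p = 9.94e-06). The mTOR complex gene Mlst8 fell (-1.06) and the cap-binding gene Eif4e rose (0.92). Of 9 hosts of small nucleolar RNAs, whose spliced RNAs also carry TOP starts, 8 were tested, and 2 were higher and 2 lower in activated against naive. Snhg6 (1.31) and Snhg5 (0.54) were higher, Snhg12 (-1.07) and Snhg8 (-1.04) lower.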

How the data were processed

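The authors deposited raw counts of reads per gene for 15 libraries. Per the submitters' processing notes, STAR 2.7.10a, featureCounts 2.0.6 and DESeq2 were used with mm10/GRCm38; per the labels' protocols libraries were poly(A)-selected and directional. Strand and multimapping settings and the annotation are not given in the sources used here. Symbols, biotypes and coordinates came from GENCODE M21, which named 54809 of 54838 genes. The 29 others held at most 0.00872% of a library.

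Counts were fitted in R 4.3.3 with edgeR 4.0.16 (filterByExpr, TMM, robust quasi-likelihood, 1 mean per group in all 15 libraries, 17144 genes), with Benjamini-Hochberg adjustment over all genes. A second fit set library size to the summed members. Letters were compared in the 9 activated libraries with stimulus as a term. Shares were compared by exact permutation. DESeq2 1.42.0 was an alternative. The edgeR contrast of GC against naive was tried on simulated data, with results not given here. That simulation did not cover the other fits or the permutation tests. CPM are TMM-scaled.

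Letters were checked as pairs by the correlation of deviations from group means, which was 0.362 to 0.495 between activated libraries of a letter and -0.0696 to 0.0752 across naive, GC and activated. The letter was therefore used as a block between stimuli, and over all 15 libraries only as an alternative, given below. Reads carried no molecular identifiers.

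Members and lists were chosen with earlier results of these data known. Named are members called relative to the summed members by at least 0.58 on the log2 scale, up to 10 a direction, the 3 highest and lowest per kilobase, untested members, paralog pairs, members with set roles, and up to 4 genes a list by size in activated against naive. Genes singled out after seeing values are marked. Members that are not reported here were kept in every fit, sum and count.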

Additional observations from a re-analysis of the deposited data

How the results depend on the processing

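Shares of counts moved by less than the spread between replicates under every alternative run. With 1 library left out, GC minus naive ran from -5.01 to -0.444 percentage points, activated minus naive from -0.399 to 4.16 and activated minus GC from 3.18 to 5.65. Counts of called members were less steady. The counts over all genes also moved, as given above for part of these fits. Leaving out 1 replicate, they ran from 2 to 4 higher and 0 to 19 lower in GC against naive, from 6 to 47 higher and 0 to 5 lower in activated against naive, from 7 to 28 higher in activated against GC, and from 1 to 41 higher between letters A and C. Relative to the summed members the ranges were 3 to 9 higher and 0 to 4 lower (GC against naive), 5 to 14 and 3 to 11 (activated against naive), and 0 to 2 and 1 to 5 (activated against GC). With only the libraries compared in the fit, 0 were lower in GC against naive (8 at an unadjusted p under 0.05 in either direction), 2 lower in activated against naive and 56 higher in activated against GC. With no filter on low counts, 2 were lower in activated against naive. Summing the stimuli per letter, chosen in part after seeing the data, gave 7 higher and 1 lower in activated against naive and 14 higher in activated against GC. Relative to the members it gave 3 and 2, and 0 and 1. Between letters A and C, 2 were lower with RLE size factors and with DESeq2. TMM on the members alone gave 3 lower in GC against naive. The causes of these changes were not tested.

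With the letter as a replicate block in all 15 libraries, 22 members were lower in GC against naive, 22 higher in activated against naive and 47 higher in activated against GC. Relative to the summed members the block gave 13 higher and 7 lower (GC against naive), 14 higher (activated against naive), and 8 higher and 19 lower (activated against GC). Across naive, GC and activated libraries the letters share only a letter by the labels. Between stimuli the block in 9 libraries gave 2 members for CpG against CD40, 1 for LPS against CD40 and 1 for LPS against CpG, where 0 were called without it. Among the alternatives run no call of a named gene reversed. The activated minus naive share, which was not called, changed sign without naive replicate C (-0.399). The median log2 change of the members turned to 0.02 in GC against naive without naive replicate B and to -0.04 in activated against naive without activated letter B. Members near or under 10 counts in a library, such as Rpl3l and Rpl39l, are limited by depth.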

Other observations

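Genes with symbols of mitochondrial ribosomal proteins (Mrpl or Mrps with a number) had another pattern. Such proteins serve a separate ribosome, but the place of each gene in it was not checked. Of 78 such genes, 77 could be tested. In GC against naive 47 were called, all of them higher (17.9% of all genes were higher and 16.5% lower), with a median log2 of 0.89 where the cytosolic members had -0.46. Fold changes were positive for 71 of the 77. In activated against naive 39 were higher and 3 lower (23.4% and 19.4% of all genes), with a median of 0.45. In activated against GC 2 were higher and 32 lower (19.4% and 17.7% of all genes), with a median of -0.40 where the cytosolic members had 0.62. The largest in activated cells were Mrps6 (3.09), Mrps25 (1.73), Mrpl17 (1.62) and Mrps36 (1.59). Mrps36 stood at 11.5, 7.21 and 10.9 CPM in the naive libraries A, B and C, 46.6, 41.8 and 43.6 in GC, and 25.8, 28.3 and 36.4 as the lowest, median and highest activated library. No 2 of these 3 groups overlapped, and GC was the highest. Mrps36 entered the list by its symbol, so its levels alone do not bear on that ribosome. The difference between the cytosolic and the mitochondrial genes was not itself tested.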
